A study of Mus musculus with 9 samples.

Results

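The thioredoxin, peroxiredoxin, catalase and superoxide dismutase genes described here were 10 genes taken by symbol from the 55401 genes of the deposited table by family, a choice made with earlier results of these data known. They were the genes for cytosolic thioredoxin (Txn1), its reductase (Txnrd1), sulfiredoxin (Srxn1), the peroxiredoxins Prdx1, Prdx2, Prdx5 and Prdx6, catalase (Cat) and the superoxide dismutases Sod1 and Sod2. All 10 were among the 12819 genes with a mean of at least 1 TPM, the filter of the fit. The study treated RAW264.7 cells, a mouse macrophage line from a tumour induced by Abelson leukemia virus, with vehicle (DMSO), with DMSO and the bacterial wall component LPS (LPS), or with LPS and the indole compound skatole (LPS + Ska). The sample labels put the treatment at 24 h and the genotype of every group at wild type, and the skatole concentration of these samples is not given in the sources used here. Each group had 3 columns, numbered 5, 6 and 7, of 1 established line, and nothing says that they came from separate cultures. The p-values therefore measure the spread between these columns, which may be technical.

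These genes encode enzymes that dispose of superoxide and hydrogen peroxide, or that keep such enzymes reduced. The superoxide dismutases turn superoxide into hydrogen peroxide, and catalase and the peroxiredoxins break the peroxide down. Most peroxiredoxins that have been oxidized are reduced again by thioredoxin, which thioredoxin reductase recharges with NADPH, and sulfiredoxin rescues peroxiredoxins that have been over-oxidized. Activated macrophages make these oxidants as part of their response to bacteria, and several of the genes are textbook targets of the transcription factor Nrf2.

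The values are TPM, a share of the transcripts of a column scaled for transcript length, so that the levels of different genes can be set side by side. Read totals cannot be recovered from TPM. Depth is therefore unknown here, and errors are spreads over columns. The LPS columns are not independent of each other, and neither are the LPS + Ska columns. In each of these groups replicate 5 equalled the mean of replicates 6 and 7, within 1e-05 TPM, in every gene in which replicates 6 and 7 were above 0 (17950 of 17950 genes with LPS and 17658 of 17658 with LPS + Ska), compared with 10 of 16674 genes in DMSO. Each of these groups then holds at most 2 independent values per gene, and n = 3 counts columns for them. Fold changes came from limma on log2(TPM + 1) of the columns, and 2 further fits treated the ties. One used 2 values recovered per gene, the columns being read as their mean and that mean plus and minus their difference, with values under 0 set to 0. On this reading the 2 values lie closer together than replicates 6 and 7. It rests on the genes in which 1 of replicates 6 and 7 was at 0, where the other was 2 to 3 times replicate 5 (within 0.001) in 4041 of 4042 genes with LPS and 4047 of 4047 with LPS + Ska, and 3 times in 3189 and 3116 of them, against 0 of 1295 in DMSO. A plain mean would give 2 times, which 1 gene in each group had. How the columns were made is not given in the sources used here, so the other fit, added after the data were seen, took replicates 6 and 7 themselves as the 2 values, with wider errors. A call needed an adjusted p (Benjamini-Hochberg, over all 12819 genes) below 0.05 together with a fold change above 1.5 or below 0.67. All 8 macrophage markers were detected, whereas the lists for T cells, B cells, fibroblasts, epithelial and endothelial cells never summed above 0.691 TPM in a column and that for neutrophils never above 3.07 TPM. A list of 6 LPS response genes summed to between 69.4 and 125 TPM in DMSO, between 637 and 664 TPM with LPS, and between 585 and 668 TPM with LPS + Ska. Its member Cd86 had a mean under 1 TPM. The summed macrophage markers lay between 11141 and 12097 TPM in DMSO, between 5889 and 6213 TPM with LPS and between 11513 and 11689.8 TPM with LPS + Ska. Without Lyz2, the lysozyme gene that makes up most of this sum, the ranges were 2229 to 2424, 1586 to 1670.4 and 1483 to 1598 TPM. In bulk samples fewer cells of a type and less RNA per cell cannot be told apart, and the part of these marker shifts in the results that follow was not tested.

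The 10 genes were mostly abundant. In DMSO the order of mean levels was Prdx1, Txn1, Sod1, Txnrd1, Prdx2, Prdx6, Cat, Prdx5, Srxn1 and Sod2. Prdx1 stood at 860.1 TPM, rank 143 among all genes listed, and Sod2 at 47.1 TPM, rank 3696. The columns overlapped between Txn1 and Sod1, between Txnrd1 and Prdx2, and between Prdx5 and Srxn1, and not between the other neighbours in this order. In LPS + Ska, Prdx1 and Txn1 kept the first places, with Prdx1 at 1699.8 TPM and rank 59. Cat moved from rank 1128 in DMSO to rank 2728 with LPS and rank 803 with LPS + Ska. Summed over the 10 genes, the columns held 3099, 3119 and 3386 TPM in DMSO, 2628, 2621 and 2636 TPM with LPS, and 4001, 3844 and 4158 TPM with LPS + Ska. The LPS columns lay below the DMSO columns in this sum and the LPS + Ska columns above them. Prdx1 is the largest part of the sum, and its mean went from 860.1 TPM in DMSO to 1699.8 TPM with LPS + Ska. A sum without Prdx1 was not made, so the position above DMSO does not describe the 10 genes as a set.

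**Figure D1:**
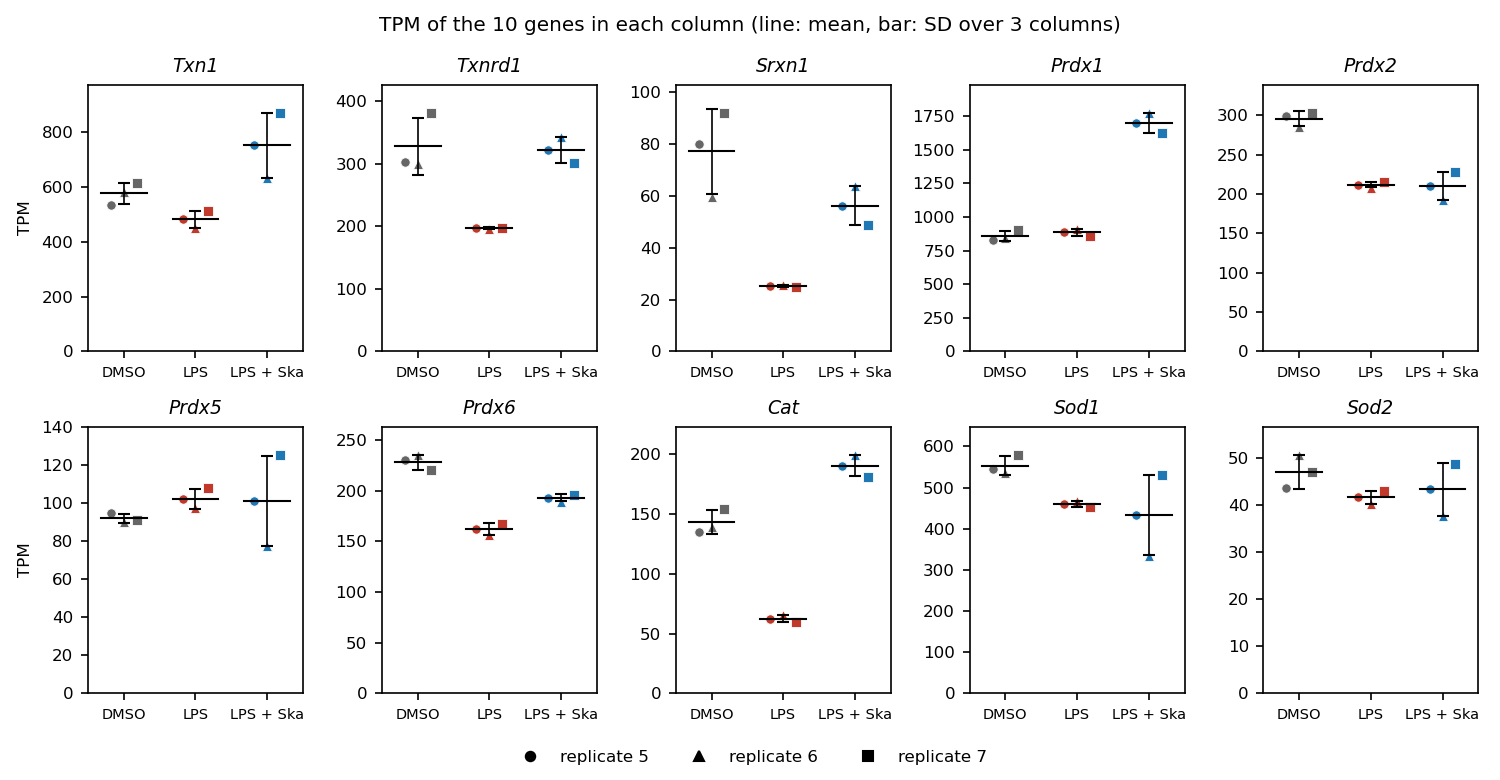
TPM of each gene (vertical axis, from 0, with a scale of its own in each panel) in the 9 columns of DMSO, LPS and LPS + Ska, with a horizontal line at the group mean and a bar for the SD over 3 columns. The LPS columns of Txn1, Txnrd1, Srxn1, Prdx6 and Cat lie below all columns of the other groups, and the LPS + Ska columns of Txn1, Prdx1 and Cat lie above all columns of the other groups.

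LPS compared with DMSO lowered the genes for thioredoxin reductase, sulfiredoxin and catalase, and Prdx1, the most abundant of the genes, did not pass the test. Of the 10 genes, 3 were called lower, where 20.0% of all tested genes were called lower. None was called higher by limma, none rose at an unadjusted p below 0.05 either (0 genes), and 12.7% of all tested genes were called higher. With the adjusted p alone and no fold change limit, 5 of the 10 were lower (34.2% of tested genes) and 0 higher (26.2%). The median log2 fold change of the 10 genes was -0.37, beside -0.07 over all genes tested.

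Srxn1 (ENSMUSG00000032802), the sulfiredoxin gene, had 79.9, 59.8 and 92.0 TPM in DMSO and 25.3, 25.8 and 24.9 TPM with LPS. All its LPS columns were below every DMSO column. Its change on the log2 scale was -1.55 (standard error 0.15, adjusted p = 2.1e-05), and 1.72% of all tested genes fell further. Cat (ENSMUSG00000027187) stood at 135, 139 and 154 TPM in DMSO and at 62.3, 65.3 and 59.3 TPM with LPS. The groups did not overlap, and the log2 fold change was -1.18 (standard error 0.07, adjusted p = 9.5e-07). Txnrd1 (ENSMUSG00000020250), the cytosolic reductase, had 303, 300.2 and 381 TPM in DMSO and 197, 195 and 198 TPM with LPS, or -0.73 on the log2 scale (95% interval -0.93 to -0.52, adjusted p = 1.1e-04). Its LPS columns also lay below every DMSO column. These 3 calls held under all 20 alternatives of the fit, with adjusted p of 4.0e-04 for Srxn1, 7.2e-05 for Cat and 0.0018 for Txnrd1 from replicates 6 and 7.

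The thioredoxin gene itself moved less. Txn1 (ENSMUSG00000028367) had 536, 581 and 613 TPM in DMSO and 482, 452 and 512 TPM with LPS, and its log2 fold change of -0.26 (95% interval -0.50 to -0.02) did not pass the test (adjusted p = 0.061). The recovered values, with a standard error of 0.08 in place of 0.11, gave an adjusted p of 0.031, replicates 6 and 7 gave 0.16, the range over the alternatives was 0.012 to 0.24, and the change stayed inside the fold change limit. Among the peroxiredoxins, Prdx2 and Prdx6 passed on the adjusted p and not on the fold change. Prdx2 (ENSMUSG00000005161), a cytosolic peroxiredoxin abundant in red cells, had 299.7, 285 and 303 TPM in DMSO and 212, 208 and 215 TPM with LPS, a log2 fold change of -0.48 (adjusted p = 1.7e-04). Prdx6 (ENSMUSG00000026701), a peroxiredoxin that uses glutathione rather than thioredoxin, had 230.2, 235 and 220.0 TPM in DMSO and 162, 156 and 167 TPM with LPS, a log2 fold change of -0.50 (adjusted p = 2.8e-05). For both genes the LPS columns lay below the DMSO columns. Prdx1 (ENSMUSG00000028691), the main cytosolic peroxiredoxin, had 832, 843 and 905 TPM in DMSO and 885, 914 and 856 TPM with LPS, with overlapping columns and a log2 fold change of 0.04 (95% interval -0.08 to 0.16, adjusted p = 0.53). After median-ratio scaling the change of Prdx1 was 0.13, with an adjusted p of 0.034, the lowest over the alternatives, and inside the fold change limit. Prdx5 (ENSMUSG00000024953), a peroxiredoxin of mitochondria, peroxisomes and cytosol, had 94.7, 89.9 and 90.9 TPM in DMSO and 102, 97.1 and 108 TPM with LPS, a log2 fold change of 0.16 (95% interval -0.16 to 0.47, adjusted p = 0.36). All LPS columns of Prdx5 were above every DMSO column. Its adjusted p ranged from 0.037 to 0.91 over the alternatives, inside the fold change limit. The lowest came from the fit of the compared groups alone, which leaves out the LPS + Ska columns (77.4 to 125 TPM for Prdx5).

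Neither superoxide dismutase passed the test with LPS. Sod1 (ENSMUSG00000022982), the copper and zinc enzyme of the cytosol, had 546, 535 and 579 TPM in DMSO and 459.9, 468 and 452 TPM with LPS, a log2 fold change of -0.27 (95% interval -0.57 to 0.03, adjusted p = 0.11). All LPS columns of Sod1 were below every DMSO column. The recovered values, with a standard error of 0.09 in place of 0.13, gave 0.037, replicates 6 and 7 gave 0.22, and the range over the alternatives was 0.0013 to 0.33. The lowest came from the fit of the compared groups alone. That fit leaves out the LPS + Ska columns, in which Sod1 ranged from 335 to 531 TPM. Sod2 (ENSMUSG00000006818), the manganese enzyme of the mitochondrial matrix and a gene known to respond to NF-kB, had 43.6, 50.7 and 47.1 TPM in DMSO and 41.7, 40.4 and 43.1 TPM with LPS. Sod2 too had all LPS columns below every DMSO column. Its log2 fold change was -0.17 (95% interval -0.38 to 0.04, adjusted p = 0.15), so that the interval ended short of a rise of 1.5-fold. The summed LPS response list was higher in every LPS column than in any DMSO column. NF-kB activity was not tested in these samples, and the single time sampled cannot show an earlier rise of Sod2.

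Skatole added to LPS raised 5 of the 10 genes, namely Cat, Srxn1, Prdx1, Txnrd1 and Txn1, and none was called lower. With replicates 6 and 7 as the 2 values 4 were called, without Txn1, while the calls over all genes went from 429 higher and 787 lower to 153 and 227. Over all tested genes 3.35% were called higher in this comparison and 6.14% lower. The count of genes called lower was 0 by limma, and 0 of the 10 fell at an unadjusted p below 0.05 in the fit of all 9 columns. At that limit 1 gene (Sod1) fell without LPS + Ska replicate 7. Median-ratio scaling of the columns, which moved the median of all genes from -0.10 to 0.00, called 4.64% of tested genes higher and 4.21% lower and kept the calls of the same 5 genes. The share of higher genes among all called genes was 35.3% before and 52.4% after this scaling. On the adjusted p alone, 6 of the 10 were higher (8.89% of tested genes) and 0 lower (19.7%), Prdx6 being the sixth. The median log2 fold change of the 10 genes was 0.44, beside -0.10 over all genes tested.

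Cat was the member with the largest fold change. Its LPS + Ska columns stood at 190.0, 199 and 181 TPM, against 62.3, 65.3 and 59.3 TPM with LPS. The log2 fold change was 1.59 (95% interval 1.44 to 1.75, adjusted p = 2.5e-06), and 99.7% of all tested genes had a lower one. Srxn1 rose from between 24.9 and 25.8 TPM with LPS to 56.3, 63.8 and 48.8 TPM with LPS + Ska. This was a log2 fold change of 1.11 (95% interval 0.78 to 1.45, adjusted p = 8.8e-04). Prdx1 rose from between 856 and 914 TPM with LPS to 1699.8, 1773 and 1627 TPM with LPS + Ska, the largest rise in TPM among the 10 genes. Its log2 fold change was 0.94 (95% interval 0.82 to 1.06, adjusted p = 1.3e-05). In all 3 of these genes the LPS + Ska columns were above every LPS column.

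Thioredoxin and its reductase were both called higher. Txnrd1 stood at 322, 343 and 302 TPM with LPS + Ska against 195 to 198 TPM with LPS, a log2 fold change of 0.71 (95% interval 0.51 to 0.91, adjusted p = 7.5e-04). Txn1 had 752, 634 and 869.8 TPM with LPS + Ska against 452 to 512 TPM with LPS, a log2 fold change of 0.63 (95% interval 0.39 to 0.87, adjusted p = 0.0029). Both sets of columns were above the LPS columns, but those of Txn1 were spread over 118 TPM (SD, n = 3 columns) around a mean of 752 TPM. Without LPS + Ska replicate 7, the highest column, the change of Txn1 was 0.52 (adjusted p = 0.0045) and fell inside the fold change limit, so that 4 of the 10 genes were called higher. With replicates 6 and 7 as the 2 values Txn1 did not pass the test (0.63, adjusted p = 0.058), the highest in a range over the alternatives from 5.7e-04. With the recovered values all 5 genes were called, with adjusted p of 1.1e-04 for Cat, 2.3e-04 for Prdx1, 0.0044 for Txn1, 0.0058 for Srxn1 and 0.0059 for Txnrd1. These values lie closer together than the columns, and replicates 6 and 7 gave higher adjusted p, of 9.7e-04 for Cat, 0.0030 for Prdx1, 0.027 for Srxn1 and 0.028 for Txnrd1, the highest over all alternatives. The lowest ranged from 8.8e-07 for Cat to 4.1e-04 for Srxn1.

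**Figure D2:**
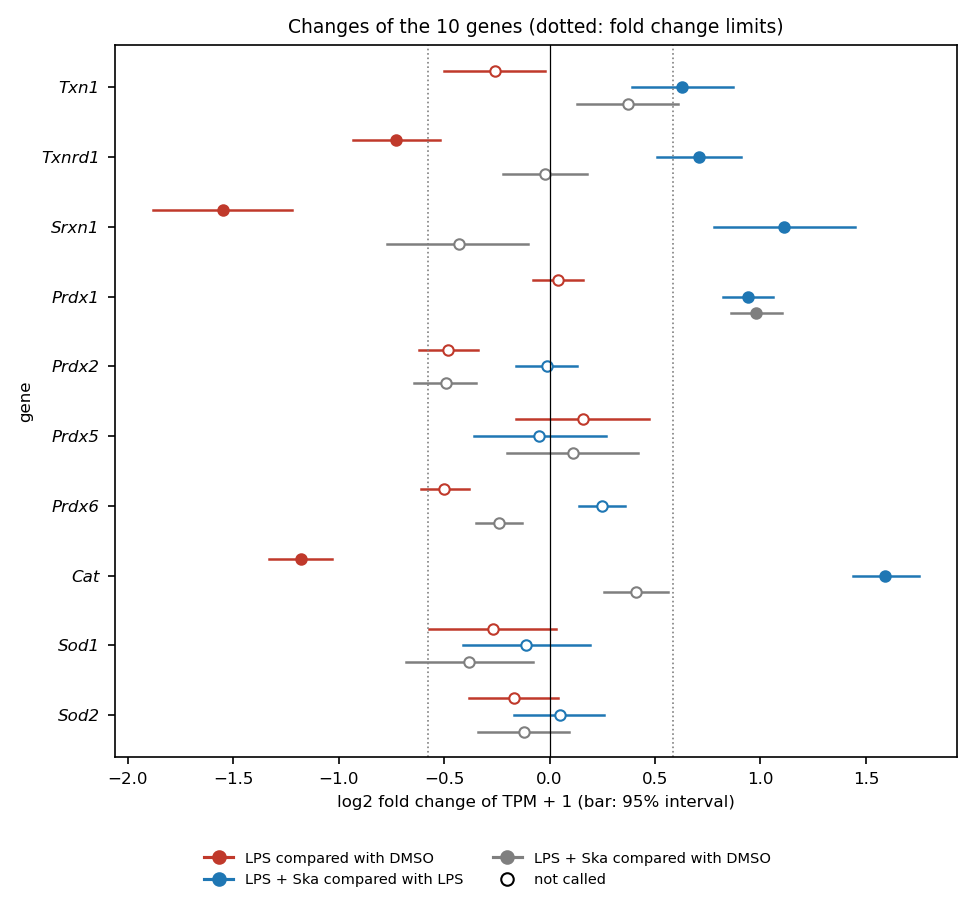
Log2 fold change of TPM + 1 (horizontal axis) of each gene in the 3 comparisons, as points with 95% intervals, filled where the gene was called, with dotted lines at the fold change limits. In LPS + Ska compared with LPS, 5 genes lie beyond the upper limit, from 0.63 for Txn1 to 1.59 for Cat, while Prdx2, Prdx5, Sod1 and Sod2 lie between -0.11 and 0.05.

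The other 5 genes were not called. Prdx6 had 193, 189 and 196 TPM with LPS + Ska against 162, 156 and 167 TPM with LPS, without overlap, and its log2 fold change of 0.25 (95% interval 0.14 to 0.36, adjusted p = 0.0055) lay inside the fold change limit, with an adjusted p of 0.15 from replicates 6 and 7, the highest in a range from 0.0019. Prdx2 stood at 210.5, 193 and 228 TPM with LPS + Ska, on both sides of its LPS columns, with a log2 fold change of -0.01 (95% interval -0.16 to 0.13). Prdx5 had 101, 77.4 and 125 TPM with LPS + Ska, a spread wider than that of either other group, and a log2 fold change of -0.05 (95% interval -0.36 to 0.27). Sod1 had 433, 335 and 531 TPM with LPS + Ska around an LPS mean of 459.9 TPM, with a log2 fold change of -0.11 (95% interval -0.41 to 0.19). Sod2 had 43.4, 37.8 and 48.9 TPM with LPS + Ska, a log2 fold change of 0.05 (95% interval -0.17 to 0.26). The intervals of these 4 genes ended short of a fold change of 1.5 in either direction, and the signs of their changes turned under some alternatives: for Prdx2 to 0.09 and for Prdx5 to 0.06 with median-ratio scaling, for Sod1 to 0.06 without LPS + Ska replicate 6, and for Sod2 to -0.04 without LPS + Ska replicate 7. Parts of the exons of 2 of these genes are shared with a gene on the opposite strand, and whether the authors' counting used strand is not given in the sources used here. Prdx5 shares 19.1% of its exonic bases with Trmt112, which had means of 119, 93.5 and 110.2 TPM in DMSO, LPS and LPS + Ska. Prdx2 shares 5.80% with Rnaseh2a and 5.67% with Junb, whose means were 308, 212 and 126 TPM, so the reads of these pairs may have been split.

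LPS + Ska compared with DMSO asks where the genes stood relative to cells without LPS. Prdx1 was called higher, the only call among the 10 genes, where 11.4% of all tested genes were called higher and 25.3% lower. Its log2 fold change was 0.98 (95% interval 0.86 to 1.10, adjusted p = 7.6e-07), with every LPS + Ska column above every DMSO column. Cat passed on the adjusted p with a log2 fold change of 0.41 (95% interval 0.26 to 0.56, adjusted p = 5.3e-04) inside the fold change limit, and after median-ratio scaling it was called higher at 0.61, with an adjusted p of 1.9e-05, the lowest of a range that reached 0.0090. Txn1 stood 0.37 above DMSO (95% interval 0.13 to 0.61, adjusted p = 0.012). For Txnrd1 the LPS + Ska columns overlapped the DMSO columns and the log2 fold change was -0.02 (95% interval -0.22 to 0.18, adjusted p = 0.87). Srxn1 had a log2 fold change of -0.43 (95% interval -0.77 to -0.10, adjusted p = 0.026) with overlapping columns, and without DMSO replicate 6, its lowest DMSO column, it was called lower at -0.61 (adjusted p = 0.0022, in a range that reached 0.15). Prdx2, Prdx6 and Sod1 were lower than in DMSO on the adjusted p alone, with log2 fold changes of -0.49 (adjusted p = 1.3e-04), -0.24 (adjusted p = 0.0019) and -0.38 (adjusted p = 0.032). Median-ratio scaling moved the median of all genes from -0.18 to 0.00 and the share of higher genes among all called genes from 31.0% to 49.6%. After it the changes of Srxn1, Prdx6 and Sod1 were -0.24, -0.05 and -0.18, and none of these 3 passed on the adjusted p (0.15, 0.46 and 0.31). Prdx2 still passed on the adjusted p after this scaling (-0.30, adjusted p = 0.0066). With replicates 6 and 7 as the 2 values, Srxn1 and Sod1 did not pass on it against DMSO either (0.080 and 0.081). Txn1 did not pass with these 2 values (adjusted p = 0.053), but it did after median-ratio scaling (0.57, adjusted p = 0.0023). None of the 10 genes was called lower by limma (0 genes), 4 were lower at an unadjusted p below 0.05, and with the adjusted p alone 3 were higher and 4 lower, where 22.7% and 40.6% of tested genes were. Prdx5 and Sod2 had log2 fold changes of 0.11 (95% interval -0.20 to 0.42) and -0.12 (95% interval -0.34 to 0.09). Because all 3 comparisons share groups, their changes are not independent of each other.

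The peroxiredoxin family shifted toward Prdx1 in LPS + Ska. Of the summed TPM of Prdx1 to Prdx6, Prdx1 held 45.2%, 45.7% and 47.1% in the DMSO columns, 50.0%, 51.5% and 48.5% with LPS, and 64.9%, 67.3% and 62.5% with LPS + Ska. The 3 groups did not overlap in this share. The sum itself was 1840.1, 1843 and 1922 TPM in DMSO, 1770.2, 1774 and 1766 TPM with LPS, and 2619.6, 2635 and 2604 TPM with LPS + Ska. The ratio of Prdx1 to Prdx2, another cytosolic member, was 2.78, 2.96 and 2.99 in DMSO, 4.18, 4.39 and 3.98 with LPS, and 8.08, 9.20 and 7.13 with LPS + Ska. Per transcript of Srxn1 there were 10.4, 14.1 and 9.84 transcripts of Prdx1 in DMSO, 34.9, 35.5 and 34.4 with LPS, and 30.2, 27.8 and 33.3 with LPS + Ska. Between the dismutase Sod1 and catalase the ratio was 4.05, 3.84 and 3.76 in DMSO, 7.38, 7.16 and 7.63 with LPS, and 2.28, 1.69 and 2.93 with LPS + Ska, again without overlap between groups. These shares and ratios are descriptions and were not tested.

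**Figure D3:**
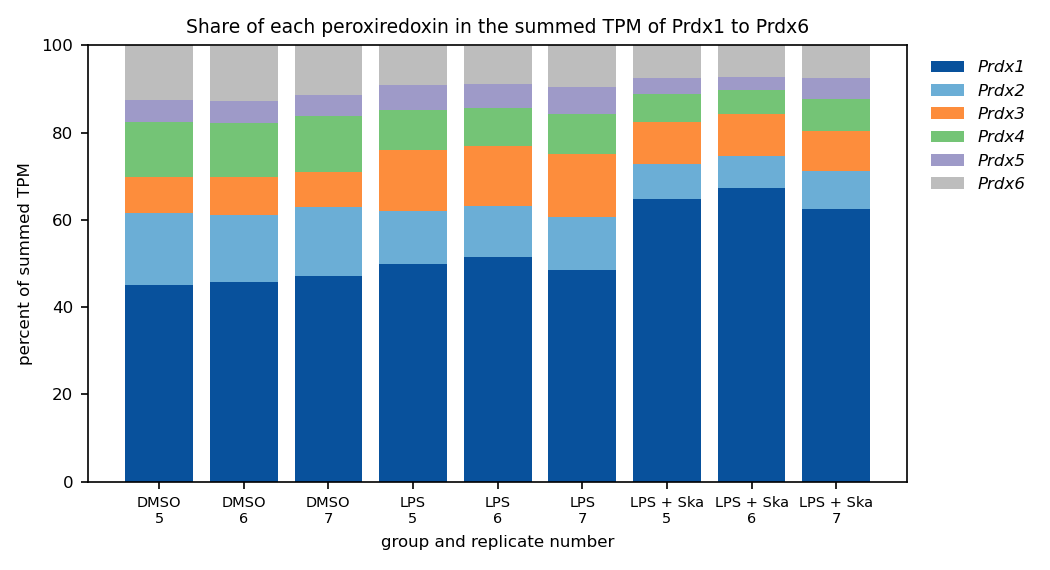
Percent of the summed TPM of Prdx1 to Prdx6 (vertical axis) that each gene held in each of the 9 columns. The Prdx1 segment takes 45.2% to 47.1% in DMSO, 48.5% to 51.5% with LPS and 62.5% to 67.3% with LPS + Ska.

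Promoter sequences were found in RefSeq (GRCm38.p6) for 9 of the 10 genes, as 11 windows of 300 bases around annotated starts. They are shown because Nrf2 binds the antioxidant response element and because several of the genes moved together. The core of this element, TGACNNNGC, was searched on both strands and matched in 4 of the 11 windows, those of Srxn1, Prdx1, Sod1 and 1 of the 3 starts of Txnrd1, compared with 12.4% of 32851 promoter windows of this length. The windows of Cat, Txn1, Prdx2, Prdx5 and Sod2 held no match. All 4 matches were on the strand opposite to the gene, so the capitals below mark the reverse complement of the motif, in sequences written 5′ to 3′ on the strand of the gene. The match in Prdx1 also holds TGACTCA, the letters of an AP-1 site, on the same strand.
Srxn1 (chr2:152105542-152105570, plus strand, match from base 28 to 36 after the start): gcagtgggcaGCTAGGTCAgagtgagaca
Prdx1 (chr4:116685421-116685519, plus strand, match at -133 to -125): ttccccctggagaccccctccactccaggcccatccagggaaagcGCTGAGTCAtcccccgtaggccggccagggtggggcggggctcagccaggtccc
Txnrd1 (chr10:82859069-82859167, plus strand, match at -92 to -84 from its start): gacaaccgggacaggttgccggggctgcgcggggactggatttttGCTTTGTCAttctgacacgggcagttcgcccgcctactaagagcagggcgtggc
Sod1 (chr16:90220661-90220759, plus strand, match at -56 to -48): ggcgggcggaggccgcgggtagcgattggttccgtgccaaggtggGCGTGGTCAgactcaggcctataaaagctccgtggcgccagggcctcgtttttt
Positions count from 0 at the first transcribed base. Srxn1, Prdx1 and Txnrd1 rose with LPS + Ska compared with LPS and hold a match, whereas Sod1 holds one and did not pass the test, and Cat and Txn1 rose and hold none in their windows. A second motif, GGNNTTTCC, which is contained in many kappa B sites, was found on the opposite strand in the window of Txn1 alone among the 9 genes (chr4:57956609-57956617), compared with 5.82% of all promoter windows. A match is a stretch of letters and no measure of binding.

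The genes are spread over several chromosomes, and those that share one lie far apart on it. On GRCm38, in the GENCODE annotation, Cat spans chr2:103453849-103485160 and Srxn1 chr2:152105516-152111376, and Txn1 spans chr4:57943373-57956411 and Prdx1 chr4:116685544-116700822. Txnrd1 (chr10:82833951-82897712), Prdx2 (chr8:84969587-84974834), Prdx5 (chr19:6906697-6910106), Prdx6 (chr1:161240112-161251219), Sod1 (chr16:90220754-90226329) and Sod2 (chr17:13006846-13040063) complete the list. All are protein-coding. Of the copies named after a member, Txn-ps1 had between 3.64 and 9.42 TPM, and Prdx2-rs3, Prdx6-ps2 and Prdx6b were listed at 0 in every column. Processed copies under other names were not looked for.

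A list of 24 related genes put these changes in the context of their pathway, and 21 of them passed the mean TPM filter (all but Sod3, Sesn3 and Msrb3). It held the other members of the families, the copper chaperone, thioredoxin-binding proteins, sestrins, glutaredoxins and methionine sulfoxide reductases. In LPS + Ska compared with LPS, 3 were called higher (Ccs, Msrb1 and Msrb2) and 1 lower (Msra), beside 3.35% and 6.14% of all tested genes, with a median log2 fold change of 0.07 beside -0.10 over all genes. LPS compared with DMSO called 2 higher (Prdx3 and Sesn2) and 4 lower (Txnrd2, Ccs, Msrb1 and Msrb2), with a median of -0.22 beside -0.07, and these counts of 21 are close to the 12.7% and 20.0% of all tested genes. LPS + Ska compared with DMSO called 3 higher (Prdx3, Sesn2 and Glrx) and 2 lower (Txnrd2 and Msra), beside 11.4% and 25.3%, with a median of -0.07 beside -0.18. In this comparison Sesn2 was not called without DMSO replicate 6.

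The mitochondrial forms of thioredoxin, its reductase and a peroxiredoxin were on the list. Txnrd2, the mitochondrial thioredoxin reductase, had 31.0, 30.5 and 26.2 TPM in DMSO, 17.1, 17.3 and 16.8 TPM with LPS, and 12.9, 11.6 and 14.3 TPM with LPS + Ska. It fell with LPS by 0.74 on the log2 scale (adjusted p = 1.3e-04). Its further change with skatole was -0.38 (adjusted p = 0.016), inside the fold change limit, where Txnrd1 had risen. This further change did not pass with the recovered values (adjusted p = 0.051) or after median-ratio scaling (-0.28, adjusted p = 0.078). Its highest adjusted p over the alternatives was 0.19. Prdx3, the mitochondrial peroxiredoxin, had 154, 161 and 156 TPM in DMSO, 249, 244 and 255 TPM with LPS, and 247, 256 and 239 TPM with LPS + Ska. LPS raised it by 0.66 on the log2 scale (adjusted p = 4.0e-06), and skatole left it at a change of -0.01 (adjusted p = 0.88). Txn2, the mitochondrial thioredoxin, had means of 155, 116 and 137 TPM and a change of 0.25 with skatole (adjusted p = 0.12). The differences between these mitochondrial genes and their cytosolic counterparts were not tested as such.

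Ccs, the chaperone that loads copper onto Sod1, had 13.6, 15.4 and 23.2 TPM in DMSO, 5.31, 4.07 and 6.56 TPM with LPS, and 18.0, 16.4 and 19.6 TPM with LPS + Ska. It fell with LPS by 1.53 on the log2 scale (adjusted p = 1.5e-04) and rose with skatole by 1.61 (adjusted p = 6.7e-04). The level of Sod1 itself passed the test in neither comparison in the fit of all 9 columns, although its LPS columns lay below the DMSO columns. Prdx4, the peroxiredoxin of the endoplasmic reticulum, had a log2 fold change of -0.55 with LPS (adjusted p = 4.2e-04) and of 0.06 with skatole (adjusted p = 0.62). Txnrd3 was at means of 2.72, 3.12 and 3.91 TPM and Sod3, the extracellular dismutase, was listed at 0 in every column.

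Methionine sulfoxide reductases repair oxidized methionine with thioredoxin as donor, and the called ones moved in both directions. Msrb1 had means of 109.6, 65.7 and 104 TPM in DMSO, LPS and LPS + Ska, with a log2 fold change of -0.73 for LPS (adjusted p = 1.8e-05) and of 0.65 for skatole (adjusted p = 2.5e-04). Msrb2, at 2.79 to 7.78 TPM over the 9 columns, changed by -0.88 with LPS (adjusted p = 0.0026) and by 0.61 with skatole (adjusted p = 0.035), a call that 11 of the 20 alternatives kept. It was lost without any 1 of the LPS columns, without LPS + Ska replicate 5 or 7, with the replicate block, with no filter, in the fit of the compared groups alone and with replicates 6 and 7 as the 2 values, and the highest adjusted p was 0.25. Msra had means of 7.44, 5.29 and 1.97 TPM and fell with skatole by 1.11 on the log2 scale (adjusted p = 0.0057), a call lost with replicates 6 and 7 as the 2 values (adjusted p = 0.086, the highest over the alternatives). Glrx, a cytosolic glutaredoxin, stood at means of 79.0, 108 and 129 TPM and was called higher in LPS + Ska compared with DMSO at a log2 fold change of 0.70 (adjusted p = 1.9e-05). Sesn2, a sestrin, had means of 8.44, 14.8 and 14.2 TPM and rose with LPS by 0.76 on the log2 scale (adjusted p = 0.0012).

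**Figure D4:**
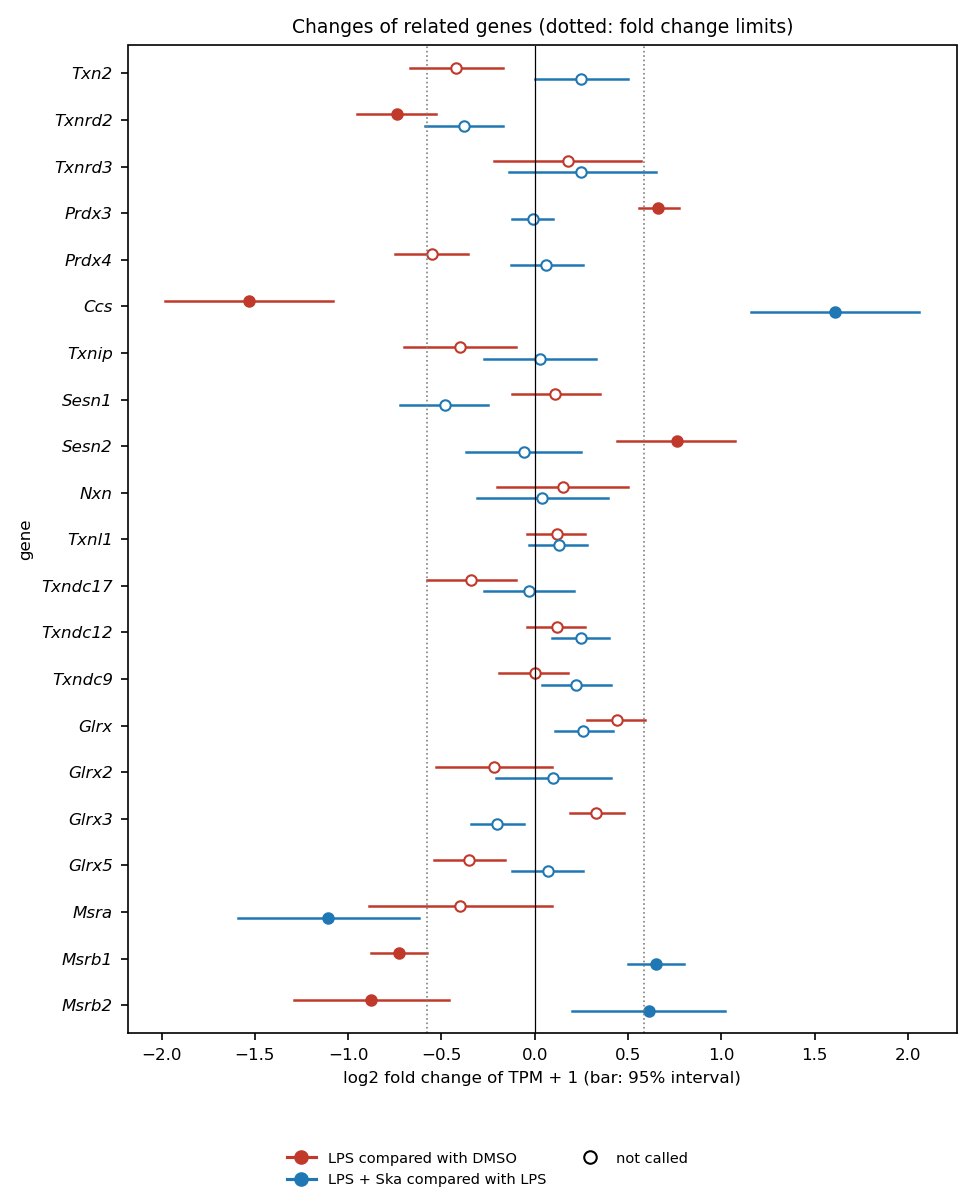
Log2 fold change of TPM + 1 (horizontal axis) of the 21 related genes that passed the filter, for LPS compared with DMSO and LPS + Ska compared with LPS, as points with 95% intervals, filled where called, with dotted lines at the fold change limits. Ccs lies at -1.53 and 1.61, and Msra at -1.11 in LPS + Ska compared with LPS.

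Within the 10 genes, the levels of Txnrd1, Srxn1 and Cat were alike over the 9 columns, with Pearson correlations of log2(TPM + 1) of 0.96 between Txnrd1 and Srxn1, 0.94 between Txnrd1 and Cat, and 0.85 between Srxn1 and Cat. Prdx6 came near them, at 0.89 with Srxn1, 0.80 with Txnrd1 and 0.69 with Cat. Txn1 stood at 0.82 with Cat, 0.68 with Txnrd1 and 0.49 with Srxn1. Prdx1 correlated at 0.78 with Txn1 and 0.68 with Cat, at 0.22 with Srxn1, and at -0.54 with Prdx2 and -0.56 with Sod1. Sod1 and Prdx2 correlated at 0.83. The 9 columns are 3 groups of tied or repeated columns, so these values mainly describe the order of the group means. Among all other tested genes the patterns most like Cat were those of Slc40a1 (r = 0.993), 9230102O04Rik (r = 0.991) and Lyz2 (r = 0.987), whose means in DMSO, LPS and LPS + Ska were 11.7, 2.41 and 15.4 TPM, 1.54, 0.350 and 2.35 TPM, and 9151, 4423 and 10061 TPM. The nearest to Srxn1 were Slc12a4 (r = 0.994), Timm22 (r = 0.994) and Tspan4 (r = 0.988), to Txnrd1 Mgat2 (r = 0.982), Oat (r = 0.978) and Tpd52 (r = 0.976), and to Sod2 Snrpf (r = 0.965), Gpr107 (r = 0.949) and Mrps23 (r = 0.949).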

How the data were processed

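The authors deposited TPM for 55401 genes listed by Ensembl identifier, in 9 columns. The submitters' processing notes name fastp 0.20.1, HISAT2 2.2.1, StringTie 2.0 and mm10, and the annotation and the counting settings are not given in the sources used here. Symbols were matched for 55141 identifiers. Treatment lasted 24 h according to the sample labels and longer according to the study's methods. From the tied columns of LPS and of LPS + Ska, 2 values per gene were recovered, lying on either side of replicate 5 at 0.5 times its distance from replicate 6 (the report gives the basis). An alternative added after seeing the data used replicates 6 and 7 instead. Changes were fitted with limma 3.58.1 in R 4.3.3 (lmFit, then eBayes with trend) of log2(TPM + 1), all 9 columns in 1 fit, after a filter at a mean of 1 TPM. The fit was also run on simulated data with independent and with tied columns. The condition set for that run averaged over both kinds, so it does not show that the p-values hold for tied columns. A fold change on this scale understates that of low genes. The fit was repeated on the recovered values, with each column left out, with a replicate block, without the trend, within the compared groups only, without a fold change limit, after median-ratio scaling, after removing mitochondrial and ribosomal protein genes from the TPM total, with a filter at 5 TPM or none, and with a pseudocount of 0.1. The text names all 10 members, the direct family members and called genes among the relatives, and the 3 genes most correlated with each of Cat, Srxn1, Txnrd1 and Sod2. The members and lists were chosen with earlier results of these data known. Gene positions came from GENCODE vM21 and promoters from RefSeq, both on GRCm38. Protein sequences were not used here. Plots used Python 3.11.15 and matplotlib 3.10.9.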

Additional observations from a re-analysis of the deposited data

How the results depend on the processing

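The 20 alternatives gave 600 values for the 10 genes in the 3 comparisons, of which 574 kept their direction and their call, 2 lost a call (Txn1 with skatole, without LPS + Ska replicate 7 and with replicates 6 and 7 as the 2 values), 11 gained one, mostly with no fold change limit, and 13 changed sign. A value whose adjusted p alone crossed 0.05 counts as kept. Some alternatives could not move a fold change, such as leaving out a column of the group not compared, so the 574 overstate the stability. No value that changed sign was called in either fit, and the cause was not tested. For skatole added to LPS, median-ratio scaling turned Prdx2 to 0.09 and Prdx5 to 0.06, and leaving mitochondrial and ribosomal protein genes out of the TPM total turned Prdx2 to 0.01. Leaving out each column gave ranges of -0.07 to 0.05 for Prdx2, -0.21 to 0.13 for Prdx5, -0.27 to 0.06 for Sod1 and -0.04 to 0.14 for Sod2, the ends coming from LPS + Ska replicates 6 and 7. Against DMSO, median-ratio scaling turned Txnrd1 to 0.18 and Sod2 to 0.07, and the smaller TPM total turned Txnrd1 to 0.04. The ranges over left-out columns were -0.08 to 0.09 for Txnrd1 and -0.05 to 0.29 for Prdx5.

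The 3 genes called lower with LPS became 5 with no fold change limit. Against DMSO the 1 gene called higher became 2 with median-ratio scaling and 3 with no fold change limit, and the 0 called lower became 4 with no fold change limit and 0 to 1 over the left-out columns, the 1 being Srxn1 without DMSO replicate 6. Skatole raised 4 to 5 genes over the left-out columns. Over all genes, dropping the fold change limit moved the calls higher and lower from 1630 and 2559 to 3354 and 4380 for LPS against DMSO, from 429 and 787 to 1139 and 2524 for LPS + Ska against LPS, and from 1457 and 3243 to 2915 and 5201 for LPS + Ska against DMSO. Replicates 6 and 7 as the 2 values, an alternative added after seeing the data, left 153 and 227 calls for LPS + Ska against LPS. With the replicate block 5 genes were called higher by skatole, 3 lower by LPS and 1 higher against DMSO, the same numbers as without it. Deviations of equally numbered columns correlated at 0.384, 0.151 and 0.128 for LPS with LPS + Ska, and at -0.0320 to 0.0801 elsewhere. Where replicates 6 and 7 are above 0, the tie keeps the deviation of replicate 5 from being negative in both groups. The value of 0.384, which is that of replicate 5, therefore cannot show pairing. The ties make the values of replicates 6 and 7 at most 1 observation, so the block stayed an alternative. In the fit with no filter limma warned that most residual variances were 0, and its values are unreliable. How far depth limits the low genes is unknown.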
